A study of Sus scrofa with 4 samples.

Results

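KRT8, KRT18 and KRT19, keratins of simple epithelia, were followed through dissociated testis cells of pigs aged 7, 30, 60 and 90 days. The genes were chosen by their symbol: of 31908 features in the count tables, 1 is named KRT8 and 1 KRT18. No feature carries the symbol KRT19, which RefSeq places on chromosome 12 from 21115453 to 21119115, so that gene is not analysed here and 2 of the 3 genes are described. KRT8 (ENSSSCG00000000252) lies on chromosome 5 from 18172423 to 18180277 and KRT18 (ENSSSCG00000000253) from 18217686 to 18221432, in RefSeq coordinates of Sscrofa11.1. They are 37408 bases apart, with 1 other RefSeq gene between them. The genes were picked with their levels in these data known, so all values below are descriptions.

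Keratins form intermediate filaments only as pairs of an acidic type I and a basic type II chain. KRT8 is the type II keratin of simple epithelia, KRT18 is its usual type I partner, and KRT19 is a type I keratin that can take KRT18's place. In the human testis, keratin 18 is known as a mark of immature Sertoli cells, the somatic cells that line the seminiferous tubule and feed the germ cells. Mature Sertoli cells rely mainly on vimentin filaments.

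Each age was 1 library of dissociated testis cells, with no treatment, breed or genotype named in the labels and nothing said on how many animals a library holds. Age and library therefore cannot be told apart, and differences between ages lack any replicate. Levels are KRT8 or KRT18 UMIs (unique molecular identifiers, 1 per captured transcript) per 1000000 UMIs summed over the barcodes of a cell type, written CPM. Intervals are exact at 95% and cover counting error only. A ratio is called higher or lower where it is at least 1.5-fold and its interval excludes no change.

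The tables hold 69602 barcodes, beside 86453 captured cells in the labels' protocol, and 49439 were used after filters. The median depth of used barcodes was 4994, 2860, 2433 and 2537.5 UMIs in order of age. Cell types were gated per barcode on marker lists without keratins, which left 23.1% of barcodes ungated. Across libraries, 555 barcode sequences recurred. The 60-day library stood apart: 4755 of its 10841 used barcodes fell in a shallow mixed cluster (c3, median 1513 UMIs at 60 days) that had no majority type and was led by genes including AZU1, S100A8, EGR1 and NR4A3. Its KRT8 level was 157 CPM, and KRT8 levels and called ratios that involve 60 days in the main gates are also given without it.

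KRT8 had its highest levels in 4 gated types, each with its own course over age, while KRT18 was near 0 in all but 90-day stroma. In Sertoli-gated barcodes KRT8 stood, in order of age, at 147 CPM (143 to 152), 3.19 (2.48 to 4.03), 241 (234 to 248) and 2.88 (2.03 to 3.97). Leydig-gated barcodes, the steroid-making cells between the tubules, held 259 CPM (247 to 271), 292 (276 to 309), 121 (90.3 to 159) and 46.7 (34.5 to 61.7) in the same order. Among contractile-gated barcodes, which take in peritubular myoid and vascular smooth muscle cells, the level was 31.6 CPM (21.2 to 45.5), 60.0 (49.1 to 72.7), 228 (190 to 273) and 276 (253 to 300). Stromal-gated barcodes, the connective tissue cells, held 17.7 CPM (15.3 to 20.3), 20.03 (17.6 to 22.8), 106 (98.9 to 113) and 90.3 (81.3 to 99.99). Sertoli-gated barcodes were thus high at 7 and 60 days only, Leydig-gated ones were highest at 7 and 30 days, and contractile- and stromal-gated ones at 60 and 90 days. Without the shallow cluster the 60-day levels were 253 CPM in Sertoli-, 126 in Leydig-, 239.7 in contractile- and 91.1 in stromal-gated barcodes.

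**Figure D1:**
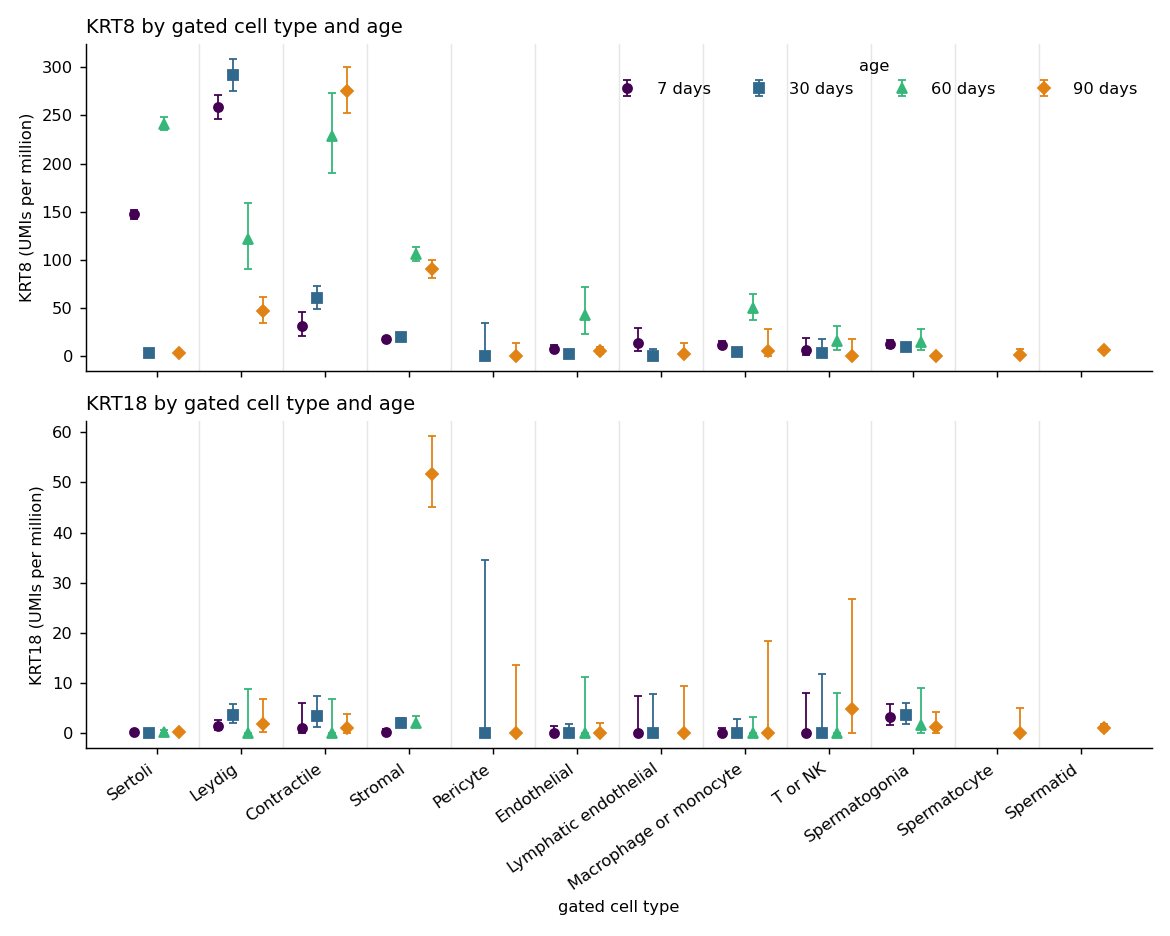
Level of KRT8 (top) and KRT18 (bottom) in CPM for each gated cell type with at least 50 barcodes at an age; points are 1 library each and bars are exact 95% Poisson intervals. KRT8 stands above 100 CPM in Sertoli-, Leydig-, contractile- or stromal-gated barcodes, while KRT18 exceeds 5 CPM only in 90-day stroma, at 51.7 CPM.

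Ordered over the 39 groups of type and age with at least 50 barcodes, KRT8 was highest in 30-day Leydig-gated, 90-day contractile-gated, 7-day Leydig-gated, 60-day Sertoli-gated and 60-day contractile-gated barcodes. The intervals of 36 of the 38 pairs of neighbours in that order overlap. The breaks fall between 60-day contractile and 7-day Sertoli barcodes, and between 90-day stroma and 30-day contractile barcodes. No KRT8 UMI was found in 5 groups, among them 90-day spermatogonia, the stem and early germ cells (164 barcodes), and 90-day T or NK lymphocytes (128 barcodes).

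Lymphocytes should lack KRT8, and their share of barcodes with a UMI gauges free RNA. That share was 3 of 101 barcodes at 7 days, or 2.97% (0.617 to 8.44%), and 1 of 144 at 30 days, or 0.694% (0.018 to 3.81%). It was 7 of 182 at 60 days, or 3.85% (1.56 to 7.76%). At 90 days it was 0 of 128 lymphocyte barcodes, which allows up to 2.34% at 3 counts of the total. Their median depths were 3179, 1400.5, 1605.5 and 1313 UMIs. Sertoli-gated barcodes held KRT8 in 50.5% at 7 days and 53.2% at 60 days, at median depths of 5584 and 4418 UMIs. At 30 days the Sertoli share was 1.503% at a median of 3801 UMIs, beside 1.26% in endothelial-gated and 1.23% in macrophage-gated barcodes at 3346 and 2983.5 UMIs, and the level was 3.19 CPM beside 2.66 and 3.83 CPM. At 90 days it was 2.13% at a median of 7581 UMIs, beside 2.04% in spermatid-gated barcodes at 1645 UMIs. The 30- and 90-day Sertoli values are therefore read as background and not as expression. Background was not even: at 60 days KRT8 reached 42.7 CPM in endothelial-gated and 49.5 CPM in macrophage-gated barcodes, and without the shallow cluster 42.7 and 26.2 CPM.

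Thinned to 2000 UMIs a barcode, with shallower barcodes left out, the Sertoli shares were 23.8%, 0.689%, 35.3% and 0.484% from 7 to 90 days. The Leydig shares were 26.3%, 29.8%, 21.9% and 8.03%, against 56.4%, 47.9%, 26.2% and 12.5% unthinned. In contractile-gated barcodes they were 3.23%, 8.10%, 32.3% and 34.5%, against 8.42%, 8.84%, 30.1% and 37.0% unthinned. Stromal-gated barcodes had 2.85%, 3.41%, 15.2% and 8.45%, against 5.24%, 3.33%, 18.1% and 8.82% unthinned. Each type keeps the ages at which it was high, although the thinned Leydig shares of the first 3 ages lie closer together than the unthinned ones.

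Between neighbouring ages, Sertoli KRT8 was lower at 30 than at 7 days, with a log2 ratio of −5.53 (−5.89 to −5.19), higher at 60 than at 30 days by 6.24 (5.90 to 6.60), and lower at 90 than at 60 days by −6.39 (−6.90 to −5.92). The share of all genes called in the same direction was 9.87% of 17714 genes for the first step, 23.5% of 18685 for the second and 17.4% of 19502 for the third. Few genes moved further: 99.7% of the genes tested had a lower ratio than KRT8 at 60 over 30 days. The 60-day level was also above the 7-day level, by 0.71 (0.65 to 0.77), beside 31.0% of genes called higher. Without the shallow cluster the ratios of 60 over 30, 90 over 60 and 60 over 7 days were 6.30, −6.46 and 0.78. Since the 30- and 90-day levels are read as background, the sizes of these ratios depend on it: with 10% free RNA taken off, the 3 steps between neighbouring ages gave −9.09, 9.80 and −8.54. At 90 against 7 days KRT8 was lower by −5.68, beside 16.2% of genes called lower.

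Leydig KRT8 did not differ by 1.5-fold at 30 against 7 days, with a log2 ratio of 0.17 (0.07 to 0.28). It was lower at 60 against 30 days by −1.27 (−1.70 to −0.86), beside 6.95% of genes called lower, and at 90 against 60 days by −1.38 (−1.97 to −0.78), beside 12.4%. The 60-day group is small: it holds 126 barcodes, of which 56 lie in the shallow cluster, and without them these 2 ratios are −1.21 and −1.43. At 90 against 7 days the ratio was −2.47 (−2.91 to −2.06), beside 11.0% of genes called lower.

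The contractile ratios were 0.92 (0.32 to 1.57) for 30 over 7 days, 1.93 (1.54 to 2.32) for 60 over 30 days and 0.27 (−0.02 to 0.57) for 90 over 60 days on the log2 scale. The first 2 pass the rule and the third does not, beside 7.34% and 10.8% of genes called higher in the first 2 steps. Without the shallow cluster the ratio was 1.99 for 60 over 30 days and 0.20 for 90 over 60 days. At 90 days the level was above that at 30 days by 2.20 (1.89 to 2.52) and above that at 7 days by 3.12 (2.58 to 3.72), beside 29.2% and 26.2% of genes called higher. The gate held different clusters at these ages, with 602 of 747 barcodes in the stromal cluster c19 at 30 days and 549 of 790 in the contractile cluster c24 at 90 days. Within it the stromal markers summed to 12176, 11101, 13051 and 7511 CPM from 7 to 90 days, beside 11076, 10866, 10899 and 23760 CPM of contractile markers. By cluster names the ratio of 90 over 30 days was 5.13. The part of this change in the gate's makeup was not tested. Stromal KRT8 was higher at 60 against 30 days, by 2.40 (2.19 to 2.62), beside 27.2% of genes called higher. Without the shallow cluster, which held 1282 of the 3232 stromal-gated barcodes at 60 days, that ratio was 2.19 and the 60-day level 91.1 CPM. Over the same step KRT8 went from 2.66 to 42.7 CPM in endothelial-gated and from 3.83 to 49.5 CPM in macrophage-gated barcodes. At 7 days stroma, at 17.7 CPM, stood beside 11.5 CPM in macrophage-gated barcodes. The part of background in the stromal values was not tested. At 90 against 7 days the stromal ratio was 2.35 (2.10 to 2.61), beside 39.8% of genes called higher.

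KRT18 was sparse throughout. KRT18 gave 485 UMIs in all used barcodes, against 17806 of KRT8, and 19 of the 39 groups held none. In Sertoli-gated barcodes there were 9, 2, 6 and 3 KRT18 UMIs from 7 to 90 days, in 4053, 4592, 3836 and 1547 barcodes. The level was therefore at most 0.34 CPM at the ages of high KRT8 as well as low. Leydig-gated barcodes held 10, 15, 0 and 2 UMIs, with 1.46 CPM at 7 days and 3.60 CPM at 30 days. KRT18 was called higher there at 30 against 7 days by 1.31 (0.06 to 2.62) on the log2 scale, beside 9.63% of genes called higher, on those 15 and 10 UMIs. At 7 days 5 of these UMIs lay in the germ cell cluster c14 and 5 in the Leydig cluster c12. At 30 days 4 lay in c14 and 11 in c12.

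Stroma held the highest KRT18 level of the 39 groups, at 90 days. KRT18 stood at 0.27, 2.05, 2.15 and, at 90 days, 51.7 CPM (45.0 to 59.2), from 3, 24, 17 and 212 UMIs. The step of 30 over 7 days was called higher, by 2.91 (1.19 to 5.29) on the log2 scale, beside 10.9% of genes called higher. At 90 days it was higher than at 60 days by 4.59 (3.88 to 5.40) on the log2 scale, beside 20.2% of genes called higher. It was found in 78 of 1758 stromal-gated barcodes, or 4.44% (3.52 to 5.51%), and in 4.54% after thinning. Outside stroma no 90-day group exceeded 4.796 CPM, the value of 1 UMI in T or NK barcodes, and 90-day contractile barcodes held 2 UMIs in 790 barcodes. Over the 39 groups KRT18 followed KRT8 with Pearson r = 0.29 on log2(CPM + 1), a description in which groups of 1 age share a library.

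Per UMI, KRT8 in germ cells stood near or below its level in macrophage-gated barcodes at 7, 60 and 90 days. Spermatogonia-gated barcodes had KRT8 at 12.3, 9.68, 14.7 and 0 CPM from 7 to 90 days, and KRT18 at 3.36, 3.60, 1.64 and 1.21 CPM. For KRT8, macrophage-gated barcodes stood at 11.5, 3.83, 49.5 and 4.99 CPM at the same ages, and lymphatic endothelial ones at 14.1 CPM at 7 days. The 60- and 90-day germ cell values are therefore not read as expression. At 7 days KRT8 was found in 23.8% of spermatogonia-gated barcodes, at a median of 22783 UMIs. The share was 6.55% in macrophage-gated barcodes, at a median of 6607 UMIs. The germ cell cluster c14 held 17.9 CPM (15.4 to 20.8) of KRT8 at 7 days. Whether the 7-day values are expression was not tested. At 30 days the germ cell value, 9.68 CPM (6.74 to 13.5), lay above 3.19 CPM (2.48 to 4.03) in Sertoli-gated barcodes. Its interval overlapped that of macrophage-gated ones, 1.24 to 8.94 CPM, and whether it is expression was not tested. KRT18 was found in 7.28% of spermatogonia-gated barcodes at 7 days, but their median depth there was 22783 UMIs, over 4 times that of the library. Per UMI, KRT18 stood there at 3.36 CPM (1.74 to 5.87), beside 0 CPM (up to 1.18) in macrophage-gated barcodes.

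How KRT8 was spread among barcodes differed between types. At 60 days 27.6% of Sertoli-gated barcodes held at least 2 UMIs and 5.47% at least 5, with a maximum of 13. At 7 days the shares were 24.6% and 2.57%. Leydig-gated barcodes at 7 days were less even: 43.6% held none while 16.04% held at least 5, with a maximum of 59, and the variance of the counts was 9.68 times their mean. The same ratio was 6.95 in 30-day Leydig barcodes, but 1.97 and 2.36 in 7- and 60-day Sertoli barcodes. Depth differed as well: KRT8 positive Sertoli barcodes at 60 days had a median of 5595 UMIs, against 2656 in KRT8 negative ones.

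**Figure D2:**
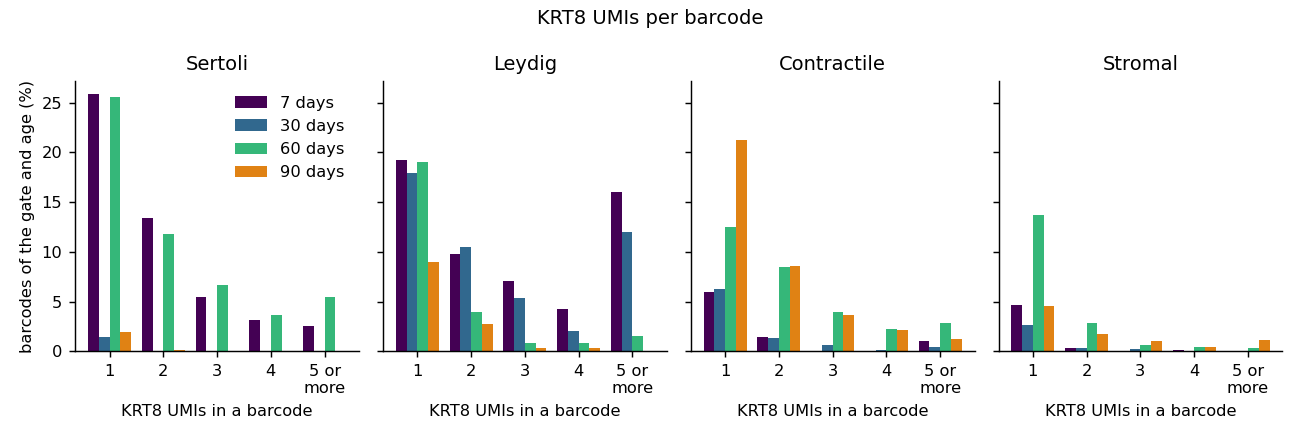
Share of barcodes (percent) with 1, 2, 3, 4 or at least 5 KRT8 UMIs in Sertoli-, Leydig-, contractile- and stromal-gated barcodes at the 4 ages, 1 library per age. Leydig-gated barcodes at 7 and 30 days have the tallest bars at 5 or more UMIs, at 16.04% and 11.97%.

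Some of the Leydig gate at 7 days came from Sertoli clusters: 158 of 723 barcodes lay in the Sertoli cluster c5, at 147 CPM of KRT8, beside 150 CPM in the Sertoli-gated barcodes of c5. The 447 barcodes in the Leydig cluster c12, led by CYP17A1, CBR1 and RDH12, held 328 CPM (312 to 344). At 30, 60 and 90 days the level in c12 was 361, 105 and 49.8 CPM, so the order of ages is that of the whole gate, with 62 barcodes at 60 days.

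Within c12 at 7 days, 115 Leydig-gated barcodes with at least 5 KRT8 UMIs were set against 147 with none, a split made after its values were seen. KRT8-rich barcodes were higher in CYP19A1, the aromatase that makes oestrogen, at 1762 against 571 CPM, and in STAR, which carries cholesterol into mitochondria, at 6575 against 3267 CPM. INSL3, the Leydig peptide hormone, was level at 45098 against 45282 CPM, and CYP17A1, which leads to androgens, stood at 13720 against 11489 CPM. Among the genes called lower were CXCL12, a chemokine, at 19.7 against 247 CPM, IGFBP2 at 51.3 against 541 CPM, and the collagen COL1A2 at 85.5 against 563 CPM. Of 9922 genes 4.26% were called higher and 13.4% lower, and the median depths were 15043 and 6467 UMIs, whose part in these ratios was not tested. Of the 9 measured Leydig markers, 4 were called higher and none lower.

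At 30 days the same split, 82 barcodes against 255, looked different. None of the 9 Leydig markers was called: CYP19A1 stood at 1224 against 1159 CPM and STAR at 2275 against 1529 CPM. KLK1, a kallikrein protease, was higher, at 408 against 37.1 CPM, and the cell cycle gene CCNB1 stood at 56.3 against 14.2 CPM. AEBP1 was lower, at 57.8 against 244 CPM, as was GPX3, a secreted glutathione peroxidase, at 256 against 600.0 CPM. Here 3.73% of 9120 genes were called higher and 3.63% lower, with median depths of 7425.5 and 4652 UMIs. Whether the difference between the 2 ages exceeds chance was not tested.

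Within the Sertoli gate, KRT8 positive barcodes were set against negative ones. At 60 days 2 genes met the naming rule: CENPF at 93.7 against 51.0 CPM, and TOP2A at 108 against 60.3 CPM. At 7 days 1 did, UBE2C, at 167 against 102 CPM. All 3 genes act in cell division. Of 17040 genes 0.751% were called higher and 6.54% lower at 60 days, and of 15726 genes 0.973% higher and 0.776% lower at 7 days. At 60 days 1121 of the 3836 Sertoli-gated barcodes lay in the shallow cluster c3. KRT8 was found in 32.7% of them, against 62.3% of those in the Sertoli cluster c1. Median depths of positive and negative barcodes were 5595 and 2656 UMIs at 60 days. The part of c3 and of depth in these calls was not tested. Dividing Sertoli barcodes (cluster c7, led by UBE2C, CENPF and TOP2A) held 144 CPM of KRT8 at 7 days, against 150 CPM in c5, while a UMI was found in 59.5% against 49.7% at median depths of 7473 and 5468 UMIs. At 60 days the 56 Sertoli-gated barcodes of c7 held 356 CPM (302 to 417), against 252 CPM (244 to 260) in the Sertoli cluster c1, at median depths of 7768 and 5630 UMIs.

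KRT8 without KRT18 was the rule per barcode. Of 4186 Sertoli-gated barcodes with KRT8, 7 also held KRT18, or 0.167% (0.067 to 0.344%), against 13 of 9842 without KRT8, or 0.132% (0.070 to 0.226%). In Leydig-gated barcodes it was 15 of 805, or 1.86%, against 9 of 1018, or 0.884%. After thinning these were 2 of 418, or 0.478%, and 11 of 1285, or 0.856%, so the order was not kept. Contractile-gated barcodes at 90 days had 1 of 292 against 1 of 498. Over all ages they had 3 of 428, or 0.701%, against 5 of 1487, or 0.336%. After thinning these were 3 of 265, or 1.13% (0.234 to 3.27%), against 1 of 1029, or 0.097% (0.002 to 0.540%). The intervals of KRT8 positive and negative barcodes overlapped in all 3 types, raw and thinned. With so few KRT18 positive barcodes, an excess of KRT18 can be neither shown nor excluded there.

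Stroma at 90 days was again apart. KRT18 was found in 40 of 155 KRT8 positive barcodes, or 25.8% (19.1 to 33.4%), against 38 of 1603 KRT8 negative ones, or 2.37% (1.68 to 3.24%). Thinned, the shares were 25.3% and 2.62%, at raw median depths of 2536 and 2201 UMIs. With at least 2 KRT8 UMIs the share was 38.7% (27.6 to 50.6%). At 60 days it was 11 of 584, or 1.88%, against 5 of 2648, or 0.189%, and without the shallow cluster 3.46% against 0.123%. The intervals at 60 days do not overlap, but only 16 stromal barcodes held KRT18.

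**Figure D3:**
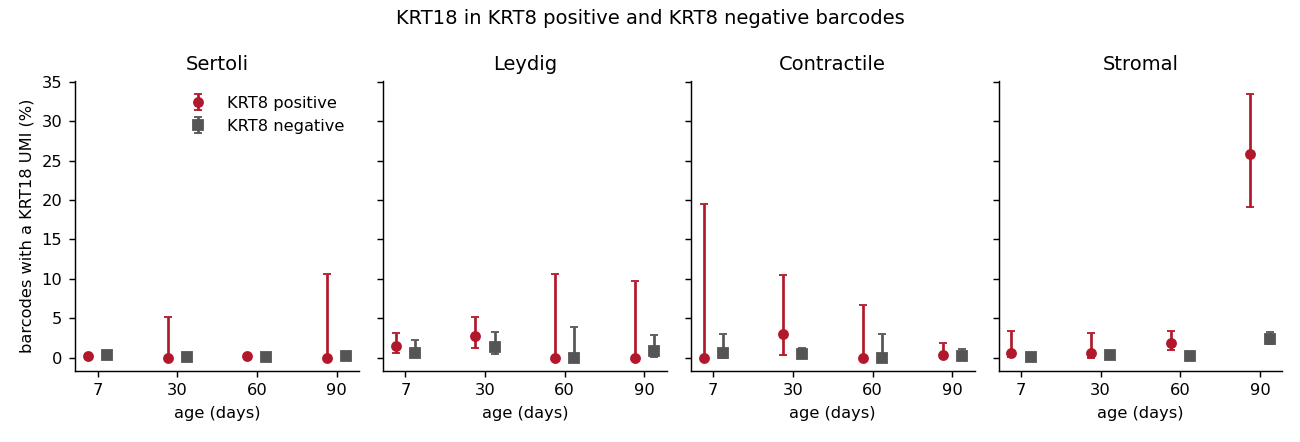
Share of barcodes with a KRT18 UMI among KRT8 positive (red circles) and KRT8 negative (grey squares) barcodes of 4 gated types by age, with exact 95% Clopper-Pearson intervals. Positive and negative barcodes lie far apart in 90-day stroma only, at 25.8% against 2.37%.

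The contractile and stromal gates each held clusters with and without KRT8. At 90 days 549 of 790 contractile-gated barcodes lay in c24, led by MYH11, NPTX1, ACTA2 and COL4A4, with KRT8 at 404 CPM and a UMI in 51.5% (47.3 to 55.8%). The 218 in c16, led by the pericyte genes RGS5, HIGD1B and NOTCH3 beside MYH11, held 7.58 CPM and a UMI in 1.83% (0.50 to 4.63%). At 30 days 602 contractile-gated barcodes in c19 held 75.4 CPM, and 110 in c16 held 4.16 CPM. Clusters were built with KRT8 and KRT18 left out, but from the other genes of the same barcodes.

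Stromal-gated barcodes divided alike. Cluster c19, led by ITGBL1, CYP26B1, which breaks down retinoic acid, and COL4A4, a basement membrane collagen, held 36.3 CPM of KRT8 at 30 days and 187 CPM at 60 days. Cluster c18, led by SFRP4 and FN1, held 3.85 CPM at 30 days, and c20, led by PI15 and NPR3, held 19.4 CPM at 60 days. CYP26B1 and COL4A4 were also among the 10 leading genes of c24. Stromal-gated barcodes of the shallow cluster held 145 CPM at 60 days. At 90 days the stroma lay mostly in c23, led by MFAP5 and SEMA3G, with 79.7 CPM.

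**Figure D4:**
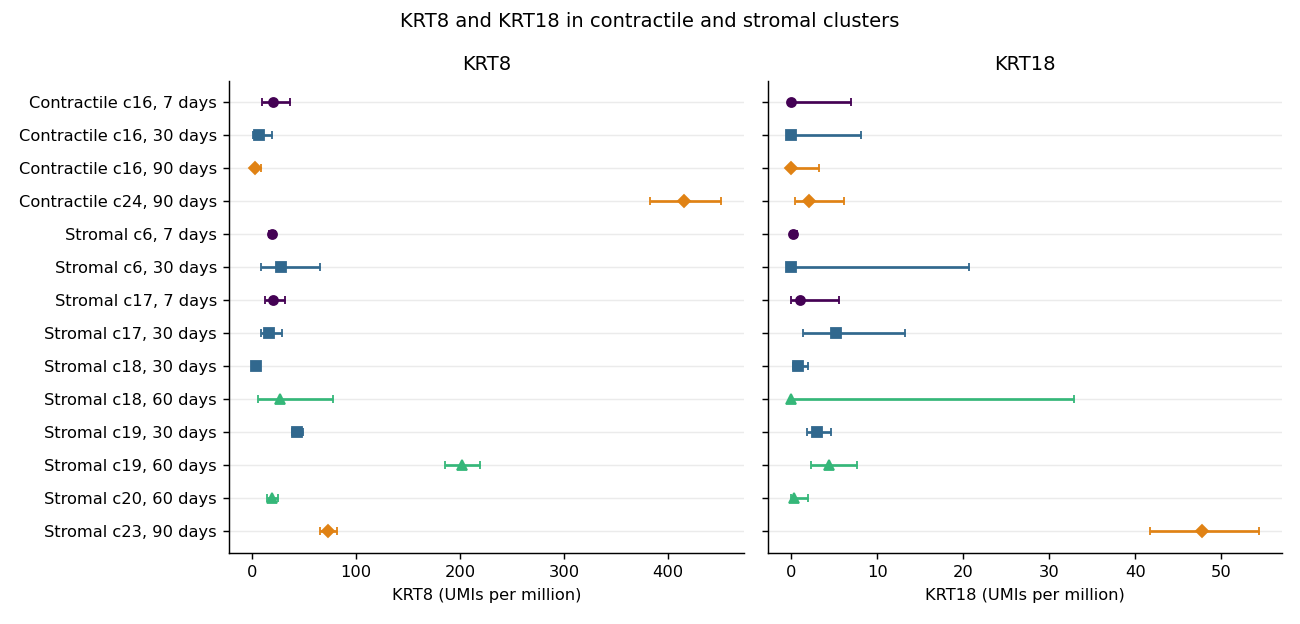
Level of KRT8 (left) and KRT18 (right) in CPM in each contractile and stromal cluster and age with at least 50 barcodes, gated or not, with exact 95% Poisson intervals; symbols and colours mark age. KRT8 is highest in contractile cluster c24 at 90 days (416 CPM) and stromal cluster c19 at 60 days (202 CPM), and KRT18 in stromal cluster c23 at 90 days (47.7 CPM).

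KRT8 positive barcodes of the 90-day stroma numbered 155 of 1758, or 8.82% (7.53 to 10.2%). Of these, 131 lay in c23 and 23 in c24. The highest count was 12 UMIs, 75 barcodes held at least 2 and 20 at least 5, and the variance was 4.31 times the mean. Beside KRT18, the leading genes in KRT8 positive barcodes, ranked by the lower bound of the ratio, were CYP26B1, at 258 against 41.9 CPM, smooth muscle actin ACTA2, at 1161 against 267 CPM, and smooth muscle myosin MYH11, at 379 against 82.4 CPM. The list went on with the fibrillar collagen gene COL11A1 (152 against 36.2 CPM), the chemokine CCL11 (230 against 58.8 CPM), BMP3 (68.7 against 16.1 CPM), COL4A3 (116 against 32.7 CPM), COL4A4 (545 against 190 CPM) and tropomyosin TPM2 (517 against 180 CPM). ACTA2 and MYH11 are also markers of the contractile gate. KRT18 stood at 310 against 22.0 CPM, a log2 ratio of 3.82 (3.41 to 4.23). Of 14079 genes 2.54% were called higher and 2.98% lower.

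The genes differed between barcodes with KRT8 alone and with both keratins. The 155 divide into 40 with KRT8 and KRT18 and 115 with KRT8 alone, beside 38 with KRT18 alone and 1565 with neither. MYH11 was found in 26.1% of barcodes with KRT8 alone, 5.0% with both, 5.26% with KRT18 alone and 6.20% with neither. CYP26B1 was also most frequent with KRT8 alone, with 24.3%, 5.0%, 2.63% and 5.43%. SEMA3G, a secreted semaphorin, was most frequent with both keratins, with 60.0% of barcodes with KRT8 alone, 90.0% with both, 71.1% with KRT18 alone and 31.8% with neither. MPZL2, an adhesion protein, had 28.7%, 57.5%, 44.7% and 11.3%, and COL11A1 21.7%, 30.0%, 31.6% and 4.98%.

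**Figure D5:**
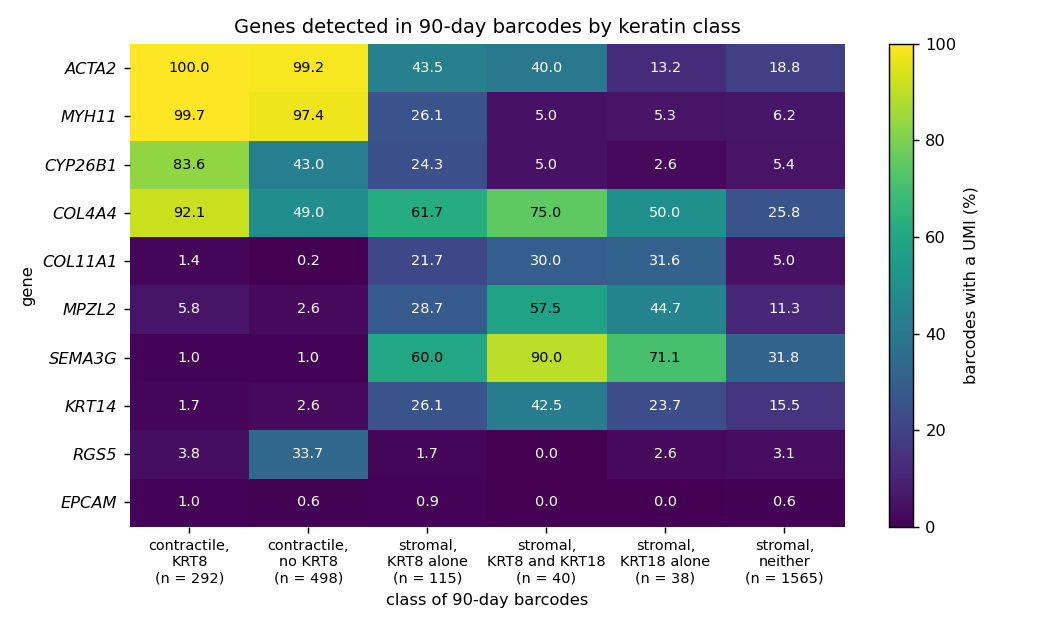
Share of 90-day barcodes (percent, printed in each cell and as colour) with a UMI of 10 genes, in contractile- and stromal-gated barcodes grouped by KRT8 and KRT18. Stromal barcodes with KRT8 alone hold MYH11 and CYP26B1 more often (26.1% and 24.3%), and those with both keratins hold SEMA3G most often (90.0%).

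Splitting the stroma by KRT18 instead, 78 barcodes against 1680, put KRT8 first, at 784 against 53.2 CPM, a log2 ratio of 3.88 (3.58 to 4.18). COL11A1 (192 against 40.4 CPM), MPZL2 (279 against 71.0 CPM), SEMA3G (938 against 279 CPM) and ADAMTSL3 (135 against 30.3 CPM) came next. Beside these, 3.03% of genes were called higher. This split was added after values were seen.

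Markers of other cells moved with these classes. The 10 contractile markers summed to 3737 CPM in stromal barcodes with KRT8 alone, 1401 with both keratins, 1020 with KRT18 alone and 1222 with neither. All 10 were detected with KRT8 alone, while ACTG2, DES and SYNPO2 were at 0 with both. The 11 stromal markers summed to 27463, 32167, 31139 and 29208 CPM in the same order. The 13 measured markers of rete testis or duct epithelium, which expresses both keratins, summed to 59.7, 108, 103 and 71.4 CPM, that is 18, 13, 9 and 256 UMIs. CDH1, PAX2, CLDN3, ELF3 and ESRP1 were at 0 in all 3 classes with a keratin, and EPCAM held 1 UMI in them. PAX2, CLDN3 and ESRP1 were also at 0 in the 1565 barcodes with neither, where CDH1 held 2 UMIs and EPCAM 10. These zeros therefore do not set the keratin classes apart. The 7 measured mesothelial markers summed to 15, 1, 4 and 247 UMIs, and WT1 was at 0 in barcodes with both keratins. Sertoli markers summed to 2662, 2528, 2418 and 3077 CPM, highest without keratins. Median doublet scores were 0.037, 0.028, 0.026 and 0.047. Of the 48 stromal-gated barcodes in the contractile cluster c24, 23 held KRT8 and 1 held KRT18. At most 1 of these 23 thus held both keratins, and the others belong to the class with KRT8 alone. The part of contractile or epithelial cells in these classes was not tested.

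In the 90-day contractile gate, 292 KRT8 positive barcodes stood against 498 negative ones. Among the leading genes were NPTX1, a neuronal pentraxin, at 1150 against 454 CPM, the adhesion receptor ADGRD1 at 402 against 154 CPM, CCN4 at 311 against 122 CPM, and HHIP, an antagonist of hedgehog ligands, at 376 against 152 CPM. Of 12097 genes 4.88% were called higher. Of the myoid genes, CYP26B1 stood at 1083 against 519 CPM and MYH11 at 5192 against 4943 CPM. The 9 pericyte markers summed to 213 against 2151 CPM, with RGS5 at 25.9 against 1194 CPM, and the 11 stromal markers to 9729 against 6107 CPM. Their part in these ratios was not tested. This split too was chosen after seeing values. KRT8 was found in 283 of the 549 barcodes of c24 and in 4 of the 218 of c16. Positive barcodes thus lay mostly in c24, while negative ones lay in both clusters.

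Among the other keratins of the list, 23 of 29 have a feature and 3 had more than 1000 UMIs in gated types of at least 50 barcodes: KRT10, KRT80 and KRT14. KRT10, a type I keratin of differentiated epidermis, was spread over all types, between 22.7 and 101 CPM. KRT80, a type II keratin, stood at 39.0, 39.5, 27.0 and 6.45 CPM in Sertoli-gated barcodes from 7 to 90 days, the highest of all groups at the first 3 ages. Its level at 30 days was close to that at 7 days, where KRT8 was lower at 30 days. KRT14, a type I keratin of basal epithelium, had its highest level in 90-day stroma, at 93.7 CPM, against 1.09, 7.07 and 16.3 CPM at 7, 30 and 60 days, and was the next highest in spermatogonia, at 67.2, 72.2, 67.1 and 18.8 CPM. In the 90-day stroma KRT14 was found in 42.5% of barcodes with KRT8 and KRT18, 26.1% with KRT8 alone, 23.7% with KRT18 alone and 15.5% with neither, and in 1.71% of contractile barcodes with KRT8.

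Genes that work with keratins were followed in Sertoli-gated barcodes through 4 lists, at 90 against 7 days. Over the 18831 genes tested, 40.0% were called higher and 16.2% lower, and the median log2 ratio was 0.40. Of the other keratins 4 could be tested, 2 higher and 2 lower, with KRT10 at 86.3 against 44.2 CPM and KRT80 at 6.45 against 39.0 CPM. Of 12 other intermediate filament genes tested, 4 were higher and 5 lower, with a median log2 ratio of −0.12. VIM, the vimentin of mesenchymal filaments, stood at 363 against 2348 CPM, nestin NES at 1.56 against 46.4 CPM, and the nuclear lamins LMNB1 and LMNA at 16.4 against 73.1 CPM and 34.2 against 117 CPM.

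Keratin-binding and desmosome genes gave 4 higher and 4 lower of 17 tested, with a median of −0.11. DSP, the desmoplakin that ties keratin to desmosomes, stood at 49.1 against 196 CPM, and plakoglobin JUP at 9.72 against 21.5 CPM. Plectin PLEC, a linker of filaments, stood at 81.6 against 47.5 CPM, and PNN at 204 against 337 CPM. Epithelial factors gave 6 higher and 5 lower of 15, with a median of −0.22: FOSL1 at 1.48 against 19.7 CPM, GATA6 at 49.5 against 213 CPM, FOS at 1876 against 6187 CPM and JUN at 1758 against 4474 CPM. DSP did not follow the 30-day low of KRT8: it was 196, 177, 194 and 49.1 CPM from 7 to 90 days.

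At 60 against 30 days, the step at which Sertoli KRT8 was called higher, epithelial factors had 11 of 16 tested genes higher and none lower. Their median log2 ratio was 1.28, against 0.21 over all genes, of which 23.5% were called higher and 5.66% lower. Among the 11, GRHL1, OVOL2, ESRP1, CDH1, EPCAM and TP63 were sparse, with 11 to 25 UMIs at 60 days, or 0.59 to 1.33 CPM. All of these but EPCAM held only 2 to 5 UMIs at 30 days and reached the minimum count for testing through their 60-day UMIs. GRHL2, GRHL3, OVOL1, ESRP2 and ELF3, with 1 to 4 UMIs at 30 days and 1 to 8 at 60 days, stayed untested. The filter thus favours higher calls among sparse genes, and its part in the 11 of 16 and in the median was not tested. KLF4, a transcription factor of epithelia, had 314, 240, 805 and 206 CPM from 7 to 90 days, CEBPB 49.9, 44.2, 91.7 and 42.8 CPM, and FOSL1 19.7, 10.7, 24.3 and 1.48 CPM. All 3 were called higher at 60 against 30 days and lower at 90 against 60 days. LMNA had 117, 75.1, 206 and 34.2 CPM. LMNA, FOSL1 and PRPH, the peripherin of neurons, were called lower, higher and lower over the 3 steps, as KRT8 was, with PRPH at 7.18, 0.73, 1.65 and 0.16 CPM. The other lists had 1 of 5, 5 of 12 and 2 of 18 genes higher at the same step. These values rest on the single 60-day library with its shallow cluster included.

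Genes with the pattern most like KRT8 over the 39 groups, among 8410 with at least 50 CPM in 1 group, reached only moderate likeness. They were GPX3 (Pearson r = 0.72), the tissue factor F3 (0.71), C14orf132 (0.70), the lipase LIPG (0.70), the calponin CNN1 (0.68), PAPSS2 (0.68), complement C4A (0.68) and SLC4A3 (0.68). F3 stood at 1402, 690, 469 and 64.5 CPM in Sertoli-gated barcodes from 7 to 90 days, without the low at 30 days. CNN1, a smooth muscle gene, stood at 147, 116, 129 and 385 CPM in contractile-gated barcodes. The set changed with the settings, and under 10 of them 1 to 6 of the 8 genes were shared.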

How the data were processed

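The data are deposited counts: raw UMIs per gene and barcode, 1 table per age, made by the authors with Cell Ranger 5.0.1 per the file headers. 10x 3′ version 3 chemistry was used, per the labels' protocols, and the build Sscrofa11.1 and the tools Scanpy 1.7.1, bcl2fastq and Cell Ranger come from the submitters' processing notes. Library totals were 96133720, 77992845, 45717373 and 64372068 UMIs from 7 to 90 days. Every feature name in a file was kept, and features with an identifier only took a symbol from a table of gene names.

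Barcodes needed at least 1000 UMIs, 500 genes and at most 15% mitochondrial UMIs (55798 passed). Scrublet scores in Scanpy 1.11.5 then removed the expected share of doublets, 0.8% per 1000 barcodes (6359 in all), because its automatic threshold called 0 barcodes at 60 days. A barcode was gated to a marker list with at least 3 detected markers whose detected share led every other list by 10 percentage points, where stromal and contractile lists did not count as rivals. Leiden clusters (2000 variable genes, 30 components, 15 neighbours, resolution 1, KRT8 and KRT18 left out) took the name of the gate held by at least 60% of their gated barcodes. UMIs were summed per type and library and divided by the total (CPM), with exact Poisson, conditional binomial and Clopper-Pearson intervals. Genes with at least 10 UMIs over both sides were tested for the 1.5-fold rule, and simulated counts with known ratios served to test the intervals. With 1 library per age no p-value was computed.

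Members and gene lists were chosen with earlier results of these data known. Gate limits, the doublet rule and the cluster naming rule were set after seeing the files; leads of 10, 15 and 20 points were run and KRT8 levels at 20 were seen before 10 was taken. Named genes were those of the lists with at least 20 CPM at 1 age and a call, up to 4 a list by size, the 8 most like KRT8, and the 10 (stroma) or 5 (Sertoli cells) with the largest ratio in KRT8 positive barcodes by the interval bound nearest to 1 and at least 50 CPM, with mitochondrial, ribosomal protein and haemoglobin genes left out. Other genes in the text were chosen after their values were seen. Tools were Python 3.11.15, NumPy 2.4.6, SciPy 1.17.1, pandas 2.3.3 and edgeR 4.0.16 (TMM factors, as an alternative). 1 gene that met a naming rule is not reported here.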

Additional observations from a re-analysis of the deposited data

Results flagged for a closer look

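KRT8 ran in opposite directions in 2 pairs of gated types over the same libraries. At 90 over 7 days its log2 ratio was −5.68 (−6.19 to −5.21) in Sertoli-gated and −2.47 (−2.91 to −2.06) in Leydig-gated barcodes, beside 16.2% and 11.0% of genes called lower. It was 3.12 (2.58 to 3.72) in contractile-gated and 2.35 (2.10 to 2.61) in stromal-gated barcodes, beside 26.2% and 39.8% of genes called higher. The difference between types was not tested, since each age is 1 library.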

How the results depend on the processing

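Over 15 alternative settings, 14 results gave 144 values, of which 118 stayed within the interval or 1.5 times the count, 26 moved and 0 turned direction. Taking off 10% free RNA gave Sertoli log2 ratios of −9.09 (30 over 7 days), 9.80 (60 over 30 days) and −8.54 (90 over 60 days). The contractile ratio of 90 over 30 days, 2.20, was 5.13 with cluster names, where the 30-day class is the pericyte-led c16. Thinning gave −1.90 for Leydig 90 over 7 days, against −2.47.

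The share of 60-day Sertoli barcodes with KRT8, 53.2%, was 60.5% under the stricter cell filter, 60.2% by cluster names, 35.3% thinned, 57.2% with a gate lead of 20 points and 61.6% without the shallow cluster; the last 2 were added after seeing the data. KRT8 positive stroma at 90 days, 8.82%, was 7.23% by cluster names and 4.27% with at least 2 KRT8 UMIs, where 38.7% held KRT18 and its log2 ratio was 4.34. KRT8 positive Sertoli barcodes with KRT18, 0.167%, were 0.050% thinned and 0.049% with at least 2 UMIs. List genes higher in Sertoli barcodes at 90 against 7 days, 16, were 7 thinned and 9 with the wider lead.

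Of the 8 genes most like KRT8, 5 were shared under the stricter filter, 3 without doublet removal, 1 by cluster names, 2 thinned, 5 with a minimum of 10 CPM, 3 with the wider lead, 5 without the shallow cluster and 3 without the 60-day library. Causes were not tested. No paired analysis was possible because each age is 1 library. KRT18 is limited by depth: single UMIs decide most groups.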

Other observations

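Barcodes that no marker list gated numbered 11417. Their KRT8 level was 105, 6.53, 129 and 5.52 CPM from 7 to 90 days, and their KRT18 level 2.05, 5.11, 1.35 and 0.95 CPM. The KRT8 course is high at 7 and 60 days, as in the Sertoli gate. Germ cell cluster c14, led by MORC1 and PAGE4, held KRT18 at 6.12 CPM at 7 days and 7.44 CPM at 30 days, and a KRT18 UMI in 9.75% and 7.59% of 513 and 949 barcodes at median depths of 17203 and 10474 UMIs.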
